A study of Mus musculus with 4 samples.

Results

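The Fcγ and TREM receptors with their signalling chains were followed by RNA sequencing in macrophages grown from mouse bone marrow and kept in coculture with MC38, a colon cancer line of the mouse. The group holds 9 genes taken by symbol from the 21878 genes of the count table. They are the IgG receptors Fcgr1, Fcgr2b, Fcgr3 and Fcgr4, the receptors Trem1 and Trem2, the signalling chains Fcer1g and Tyrobp, and the kinase Syk. All 9 were listed and all 9 passed the filter on low counts, as did 12494 genes in all. The labels give 2 libraries as wildtype (WT) and 2 as anti-Act1, both from C57BL/6 mice aged 8 weeks, and all 4 from macrophages kept for 48 h with the tumour cells. Per the study's methods, marrow cells were grown with M-CSF and the tumour cells sat in a porous insert, so that secreted factors could pass between the cultures. The anti-Act1 mice are described there as a macrophage-specific knockdown of Act1, and the construct and its promoter are not given in the sources used here. The sex of the mice is not given in the labels, and no coculture-free macrophages were analysed here.

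Fcγ receptors bind the constant part of IgG and let macrophages take up antibody-coated targets. Fcgr1, Fcgr3 and Fcgr4 are activating receptors that signal through the chain encoded by Fcer1g, whereas Fcgr2b carries its own inhibitory motif (ITIM) and dampens them. Trem1 and Trem2 signal through Tyrobp (DAP12): TREM-1 amplifies inflammatory responses, and TREM-2 senses lipids and apolipoproteins and is known from lipid-loaded and tumour-associated macrophages. Both chains carry an activating motif (ITAM), which recruits the kinase SYK once it is phosphorylated.

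The WT-labelled pair of libraries held 64199075 and 75062945 counts in total and the pair labelled anti-Act1 61926229 and 55435063. The 9 genes took 0.533% and 0.506% of all counts in the former and 0.500% and 0.492% in the latter. Traf3ip2, which encodes Act1, was read first as a check of the labels. It stood at 6.98 and 7.54 CPM (counts scaled to library size) in the WT-labelled pair and at 9.63 and 7.84 CPM in the pair labelled anti-Act1, with a log2 fold change of 0.27 ± 0.12 (SE) and an adjusted p of 0.117 (edgeR). Without anti-Act1 replicate 1 this was 0.113 (adjusted p = 0.723), and without anti-Act1 replicate 2 it was 0.409 (adjusted p = 0.0343), a call that Traf3ip2 was higher. A lower Traf3ip2 transcript level was therefore not seen in the pair labelled anti-Act1, and the directions given here follow the labels. Marker genes of macrophages summed to 24462 to 25396 CPM in the WT-labelled pair and 25174 to 26007 CPM in the others, most of it from Lyz2. Of the 8 markers, Mrc1 (log2 fold change -0.63, adjusted p = 5.57e-14), Mertk (-0.40, adjusted p = 4.09e-08) and Itgam (-0.31, adjusted p = 3.96e-06) were lower and Cd14 (0.16, adjusted p = 0.0113) was higher in the pair labelled anti-Act1. Their part in the members' values was not tested. Of 8 epithelial tumour cell markers, 5 were at 0 in all 4 libraries, Krt8 and Krt18 among them.

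Fcgr2b and Fcgr3 lie in 1 cluster with Fcgr4 on chromosome 1, and their extracellular parts are encoded by near-identical exons. The longest run of coding bases that both share is shown because reads from it tell the genes apart only by the bases beside it. It has 129 bases and runs from exon 3 into exon 4 of both genes on the minus strand. In the GRCm38 build (GENCODE M21) its 2 pieces lie at chr1:170967980-170968081 and chr1:170966674-170966700 in Fcgr2b, and at chr1:171057691-171057792 and chr1:171054167-171054193 in Fcgr3. Capitals mark the bases of exon 4.
Fcgr2b and Fcgr3: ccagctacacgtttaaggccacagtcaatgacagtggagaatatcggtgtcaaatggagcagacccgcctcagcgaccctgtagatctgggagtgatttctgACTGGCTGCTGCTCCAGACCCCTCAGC
Of all windows of 50 bases in the longest transcript of each gene, 7.44% for Fcgr2b and 12.8% for Fcgr3 also stand in a transcript of another gene, most of them in each other. The other 7 members shared 0 such windows. Counts of Fcgr2b and Fcgr3 are uncertain in these windows, less where the rest of a read pair lies outside. The shares count exact matches in the longest transcript only and are not an upper limit. Fcgr2b also lies across an antisense gene, while neither the labels nor the methods state strand-aware counting.

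Most of these genes were strongly transcribed. Levels are given here as FPKM, which divides by gene length and so lets genes be compared. Tyrobp was highest, with 1232 and 1104 FPKM in the WT-labelled pair and 1143 and 1089 FPKM in the pair labelled anti-Act1, and ranked 32 among all genes. Fcgr3 (mean 806 FPKM over the 4 libraries) and Fcer1g (761 FPKM) followed, and their ranges of 777 to 836 and 735 to 806 FPKM overlapped. Within each of the 4 libraries, however, Fcgr3 stood above Fcer1g. Trem2 had 654 and 580 FPKM in the WT-labelled pair and 603 and 604 FPKM in the others. Tyrobp thus stood above both TREM receptors, and Fcer1g stood beside Fcgr3, the highest of the activating Fcγ receptors.

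**Figure D1:**
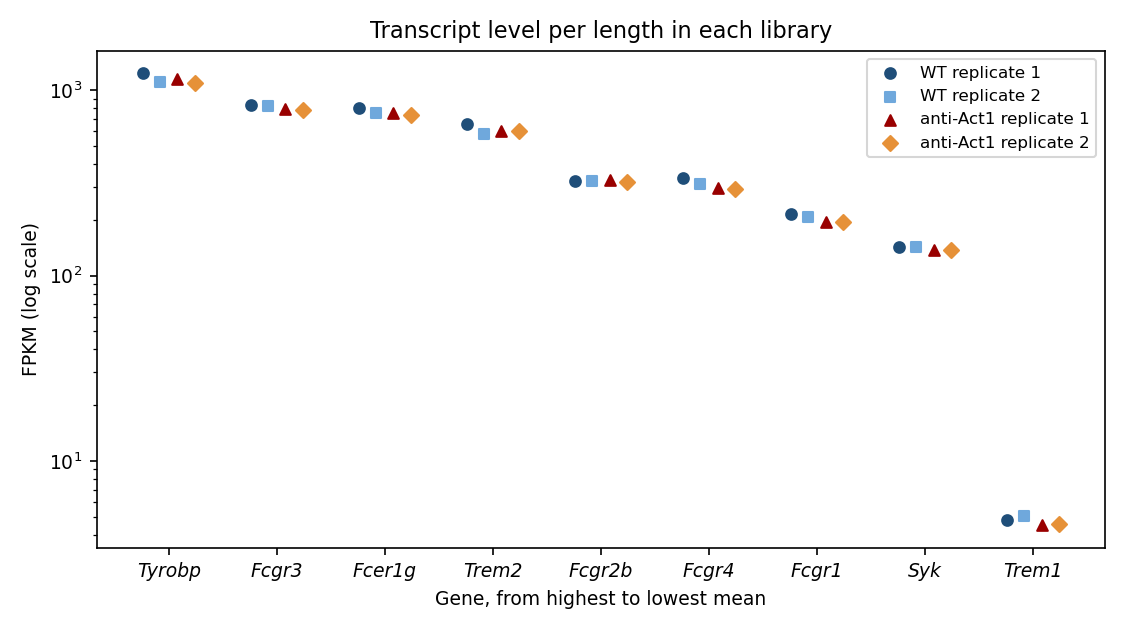
FPKM of each gene on a log scale, with 1 point per library and the genes ordered by their mean. All but Trem1 lie above 100 FPKM in each of the 4 libraries, and Trem1 lies between 4.50 and 5.03 FPKM.

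Fcgr2b (mean 324 FPKM, range 319 to 329) and Fcgr4 (309 FPKM, range 294 to 334) again overlapped. Fcgr1, the high-affinity IgG receptor, came next with 203 FPKM (range 195 to 215), and Syk had 140 FPKM (range 137 to 143). Trem1 was far below the rest, with 4.83 and 5.03 FPKM in the WT-labelled pair and 4.50 and 4.58 FPKM in the pair labelled anti-Act1. In this order the only neighbours whose ranges overlapped were Fcgr3 with Fcer1g and Fcgr2b with Fcgr4.

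Whether the receptors differed between the groups was tested with edgeR over all 12494 genes. The test called 0 of the 9 genes at an adjusted p under 0.05, against 2586 of all genes tested (20.7%), of which 1366 (10.9%) had a higher and 1220 (9.76%) a lower level in the pair labelled anti-Act1. Among the 2051 genes with a mean of at least 100 CPM, 34.0% were called, and 0 of the 8 members that belong to them. At an unadjusted p under 0.05 the same fit had 0 of 9 members, against 3918 of all genes tested (31.4%). DESeq2 had 2 members at that level, limma on FPKM 1 or 2, edgeR without composition normalization 2 and edgeR without WT replicate 2 had 3, and the other edgeR alternatives had 0. After adjustment 0 of 9 passed under any of 13 alternatives of processing. A p over the threshold does not show that the groups act alike, so the size of each difference is given with its 95% interval. In bulk libraries, fewer cells of a type and less RNA per cell cannot be told apart.

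The activating receptors were a little lower in the pair labelled anti-Act1, and none of these differences passed the test. Fcgr4, which binds IgG2a and IgG2b, had 414 and 384 CPM in the WT-labelled pair and 374 and 373 CPM in the pair labelled anti-Act1. Its groups did not overlap, and the log2 fold change was -0.10 ± 0.05 (SE; 95% interval -0.20 to 0.01; adjusted p = 0.199, edgeR). The interval spans 0.871-fold to 1.01-fold. Its size rests on the WT-labelled pair: leaving out WT replicate 1 gave -0.041 on the log2 scale, and leaving out WT replicate 2 gave -0.150. Over the alternatives its adjusted p ranged from 0.0555 to 0.696, the smallest of any member.

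Fcgr1 had 554 and 529 CPM in the WT-labelled pair and 506 and 512 CPM in the others, without overlap. Its log2 fold change was -0.09 ± 0.05 (SE; 95% interval -0.19 to 0.01; adjusted p = 0.226, edgeR). Fcgr3, a low-affinity receptor and the most abundant of the 4, had 1264 and 1237 CPM against 1202 and 1199 CPM. These groups too stood apart, by a log2 fold change of only -0.06 (95% interval -0.16 to 0.04; adjusted p = 0.456, edgeR).

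The inhibitory receptor Fcgr2b went the other way by an even smaller step. It had 474 CPM in both libraries labelled WT and 487 and 478 CPM in the pair labelled anti-Act1. The log2 fold change was 0.03 (95% interval -0.07 to 0.13; adjusted p = 0.770, edgeR). The CPM values did not overlap, whereas in FPKM, which are not TMM-scaled, the 2 values of the group labelled anti-Act1 (329 and 319) lay on both sides of the 2 of the group labelled WT (323 and 325).

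**Figure D2:**
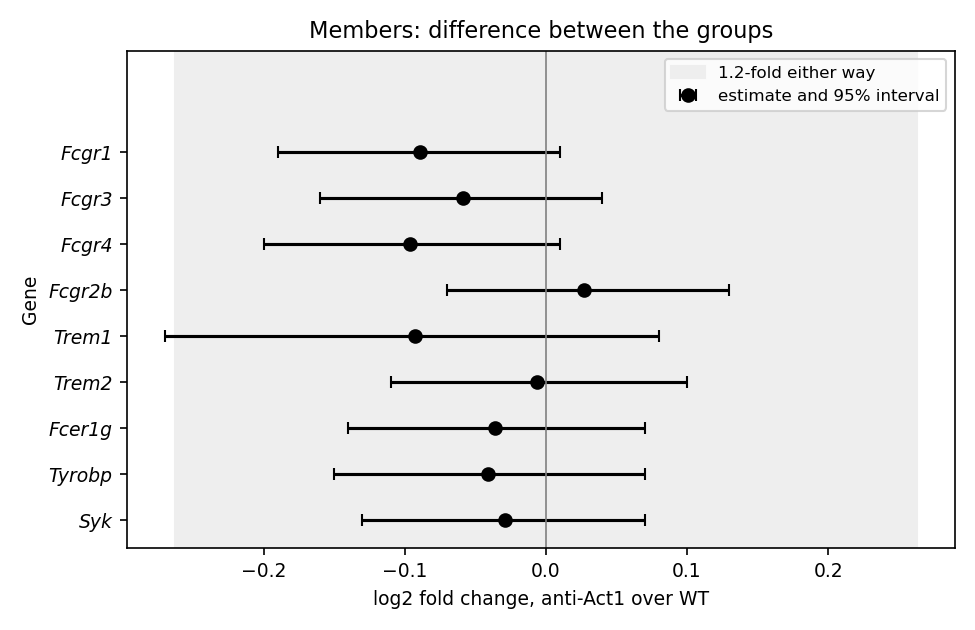
log2 fold change of each gene, libraries labelled anti-Act1 over libraries labelled WT, with 95% intervals from edgeR and a grey band for 1.2-fold either way. All 9 intervals span 0, and that of Trem1 alone reaches past the band, to -0.27.

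Both TREM receptors also gave differences within the error. Trem2 had 727 and 642 CPM in the WT-labelled pair and 676 and 686 CPM in the pair labelled anti-Act1, so that the second pair lay wholly inside the first. Its log2 fold change was -0.01 (95% interval -0.11 to 0.10; adjusted p = 0.959, edgeR). Trem1 had 15.1 and 15.6 CPM against 14.2 and 14.6 CPM, with no overlap and a log2 fold change of -0.09 ± 0.09 (SE; 95% interval -0.27 to 0.08; adjusted p = 0.523, edgeR). With 798 to 1186 counts in a library, Trem1 had the widest interval of the group.

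Trem1 is a receptor that neutrophils also carry. The 10 neutrophil markers summed to 7.54 to 7.71 CPM in the WT-labelled pair and 6.70 to 7.67 CPM in the pair labelled anti-Act1; of 7 tested, 4 were lower and 1, S100a8, was higher, and Ly6g had 0 counts in 3 libraries and 0.0774 CPM in the fourth. NK cells and mast cells also carry Fcγ receptors or their chains, and their markers summed to 2.85 to 3.14 CPM against 1.98 to 2.07 CPM and to 1.05 to 1.24 CPM against 0.712 to 0.769 CPM, with Ncr1 at most 0.256 CPM. The part of these cells in the members' values was not tested.

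The signalling chains and Syk gave no difference past the test either. Fcer1g had 527 and 488 CPM in the WT-labelled pair and 498 and 491 CPM in the pair labelled anti-Act1 (log2 fold change -0.04, 95% interval -0.14 to 0.07, adjusted p = 0.693, edgeR). Tyrobp had 696 and 621 CPM against 652 and 629 CPM (log2 fold change -0.04, 95% interval -0.15 to 0.07, adjusted p = 0.659, edgeR). For both chains the groups overlapped, since WT replicate 1 was the highest and WT replicate 2 the lowest of the 4 libraries.

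Syk had 623 and 616 CPM in the WT-labelled pair and 605 and 610 CPM in the others. The groups did not overlap, but the log2 fold change was -0.03 (95% interval -0.13 to 0.07; adjusted p = 0.745, edgeR). Without WT replicate 1 the log2 fold changes of Fcer1g, Tyrobp and Trem2 turned to 0.020, 0.043 and 0.085, so their direction depends on that library. That of Trem2 also turned, to 0.008, without anti-Act1 replicate 1.

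**Figure D3:**
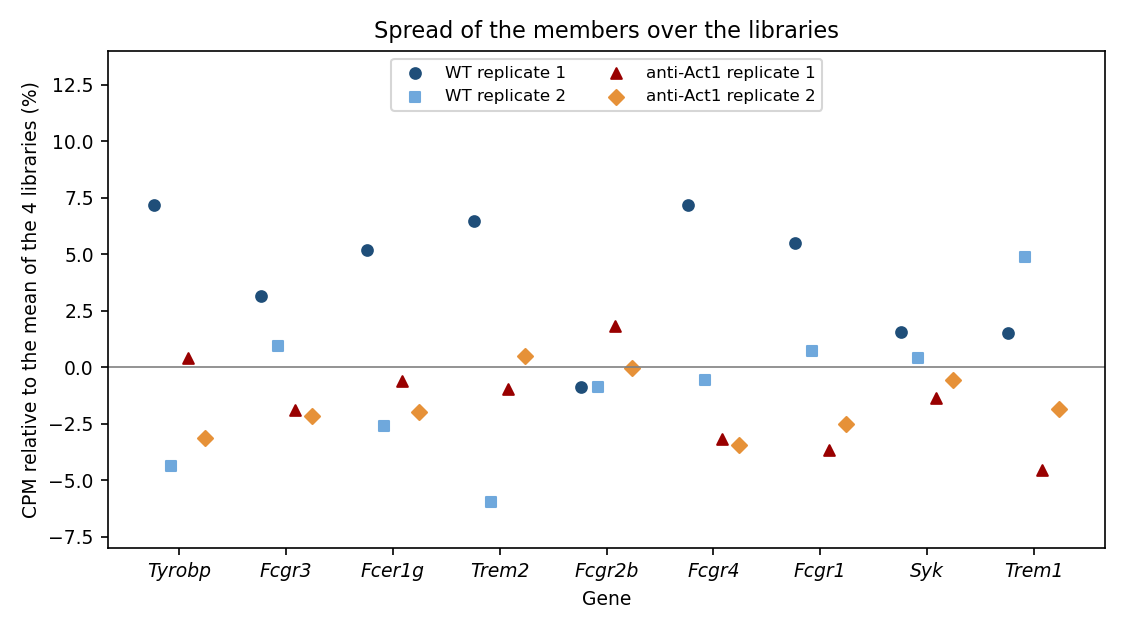
CPM of each gene in each library, in percent above or below the mean of the 4 libraries. WT replicate 1 is the highest library for 7 of the 9 genes, all but Fcgr2b and Trem1.

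In all, 5 of the 9 genes (Fcgr1, Fcgr3, Fcgr4, Syk and Trem1) had both libraries labelled anti-Act1 below both labelled WT, and 1 (Fcgr2b) had them above. Of all genes tested, 28.7% showed the first pattern and 28.4% the second. The intervals of 8 members, all except Trem1, lay within 1.2-fold either way, a band set after the values were seen. That held for 70.6% of the 2051 genes with at least 100 CPM. The median log2 fold change was -0.04 over the 9 members and -0.005 over all genes tested, and the median size of the change was 0.04 against 0.12. These medians are not matched for level: all genes tested include many of low counts, whereas 8 members had at least 100 CPM.

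Ratios within a library describe the balance of the family without any scaling between libraries. Activating receptors (Fcgr1, Fcgr3 and Fcgr4 summed in FPKM) exceeded the inhibitory Fcgr2b by 4.29 and 4.13 times in the WT-labelled pair and by 3.89 and 3.97 times in the pair labelled anti-Act1. The groups did not overlap, and the log2 difference of -0.099 was larger than the pooled SD of the replicates, 0.031. With 2 libraries against 2, an exact permutation test cannot go below p = 0.333, and this ratio was not tested.

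Fcer1g was 0.582 and 0.559 times the summed activating receptors in the WT-labelled pair and 0.589 and 0.581 times in the others. The chain thus kept near pace with these Fcγ receptors, and the groups overlapped. Trem2 exceeded Trem1 by 135 and 115 times in the WT-labelled pair and 134 and 132 times in the pair labelled anti-Act1. Tyrobp exceeded the sum of Trem1 and Trem2 by 1.87 and 1.89 times, and by 1.88 and 1.79 times. In both of these ratios the groups overlapped.

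**Figure D4:**
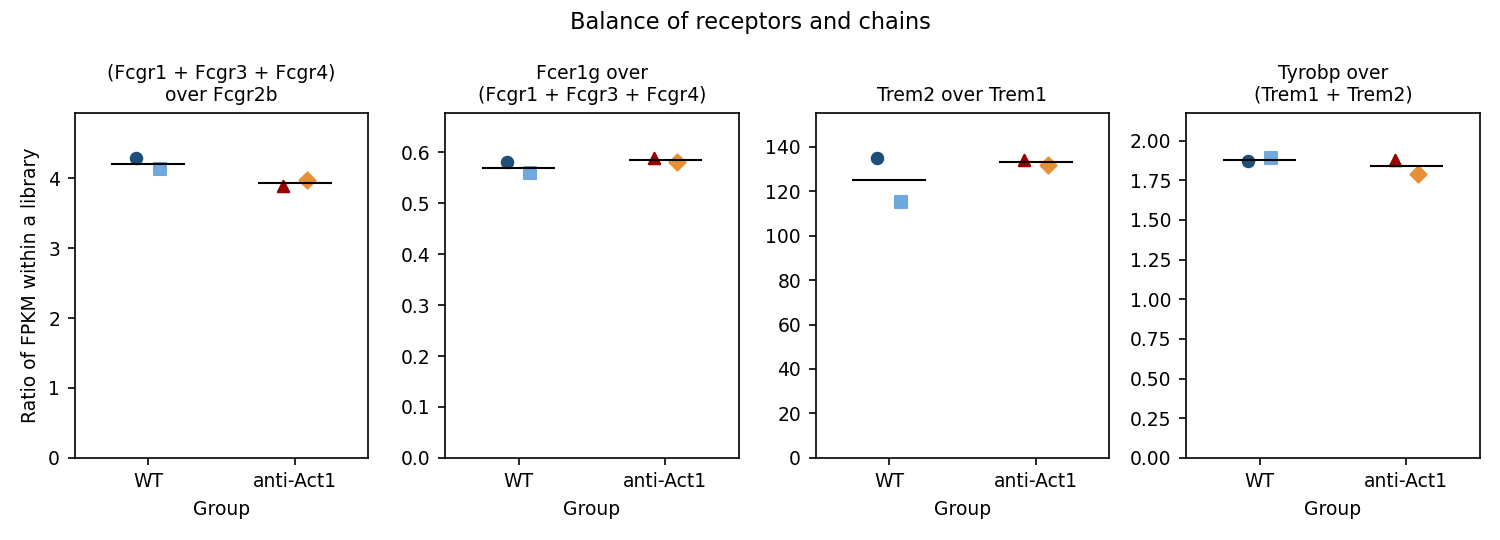
Ratios of FPKM within each library, with 1 point per library, a line at each group's mean and axes from 0. The activating to inhibitory ratio has means of 4.21 in the group labelled WT and 3.93 in the group labelled anti-Act1, and the ranges of the other 3 ratios overlap.

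Around these receptors, other genes of the same pathways did pass the test. The lists below were written by hand around the 9 genes, and their counts are read beside the 20.7% of all genes tested and the 34.0% of those with at least 100 CPM. Of 31 tested kinases and adaptors that relay the ITAM signal, 4 were higher and 11 lower in the pair labelled anti-Act1 (median log2 fold change -0.11). Src, which can phosphorylate ITAMs, rose from 38.8 and 35.8 CPM to 51.3 and 53.0 CPM (log2 fold change 0.48 ± 0.06 (SE), adjusted p = 4.17e-08, edgeR). Fgr, a myeloid kinase of the same family, rose by a log2 fold change of 0.36 ± 0.09 (adjusted p = 0.00163, lost in 1 of 13 alternatives), and Malt1, a protease of the CARD9 branch, by 0.36 ± 0.06 (adjusted p = 1.77e-05, lost in 1 of 13). Fyn, another Src family kinase, fell by 0.35 on the log2 scale (adjusted p = 0.00469, lost in 2 of 13, 1 of them without anti-Act1 replicate 1), Btk, a kinase downstream of SYK, by 0.28 (adjusted p = 0.000192) and Rac1, a GTPase of phagocytosis, by 0.23 (adjusted p = 0.000460). Pik3cb was the other rise (log2 fold change 0.18, adjusted p = 0.0142, lost in 6 of 13), named after its values were seen. Src family kinases thus moved both ways, while Plcg2, a phospholipase downstream of SYK, had a log2 fold change of -0.14 (adjusted p = 0.0702) and passed in 2 of 13 alternatives.

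Brakes on the signal were mostly lower. Of 15 tested phosphatases and adaptors of this kind, 8 were lower and 1 higher (median log2 fold change -0.15). Sla, an adaptor that limits receptor signalling, fell from 22.5 and 23.2 CPM to 12.6 and 15.3 CPM, by a log2 step of -0.71 ± 0.09 (SE; adjusted p = 6.95e-09, edgeR). Ptpn22, a phosphatase of Src family kinases, fell by 0.60 on the log2 scale (adjusted p = 2.92e-08) and Dok2, an adaptor that restrains Ras, by 0.36 (adjusted p = 3.46e-06). The lone rise was Cblb, a ubiquitin ligase, at 0.18 ± 0.05 (adjusted p = 0.0123), a call lost in 6 of 13 alternatives. Inpp5d, which encodes SHIP1, the lipid phosphatase that acts behind Fcgr2b, had a log2 fold change of -0.15 ± 0.05 (adjusted p = 0.0313, lost in 5 of 13). It was named after its values were seen.

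Of 15 tested genes listed as ITIM receptors, after the motif of Fcgr2b, 6 were lower and 1 higher (median log2 fold change -0.10). The list also holds relatives without a classical ITIM, some of them among the lower genes. Cd300lf, a lipid-binding receptor, rose from 220 and 207 CPM to 320 and 339 CPM (log2 fold change 0.63 ± 0.05 (SE), adjusted p = 1.30e-13, edgeR). Cd72 fell by 0.40 on the log2 scale (adjusted p = 3.24e-08), Lair1, a collagen receptor, by 0.35 (adjusted p = 1.89e-05) and Pilra by 0.34 (adjusted p = 0.000123). Pirb, with 435 to 456 CPM, had a log2 fold change of -0.04 (adjusted p = 0.656), close to that of the members.

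Among 21 tested genes listed as receptors that pair with Fcer1g, Tyrobp or Hcst, 3 were higher and 5 lower (median log2 fold change -0.10). The list also holds the adaptor Hcst itself and TREM family relatives not known to pair with these chains. The largest rise was Clec4e (Mincle), a receptor for glycolipids and dying cells that signals through Fcer1g. It had 64.3 and 67.6 CPM in the WT-labelled pair and 195 and 185 CPM in the pair labelled anti-Act1. This gave 1.53 ± 0.05 on the log2 scale (SE; adjusted p = 4.35e-27, edgeR), while its chain Fcer1g stood at a log2 fold change of -0.04. Its partner Clec4d, at 1287 to 1533 CPM, rose by only 0.18 ± 0.05 (adjusted p = 0.00595, lost in 5 of 13 alternatives), and Pira6 by 0.41 ± 0.10 (adjusted p = 0.00153, lost in 2 of 13). Falls were seen in the Tyrobp-paired Pilrb1 (log2 fold change -0.47 ± 0.12, adjusted p = 0.00194, lost in 2 of 13), Pilrb2 (-0.44 ± 0.09, adjusted p = 8.46e-05) and Cd300lb (-0.37 ± 0.05, adjusted p = 2.32e-07). Pilrb1 and Pilrb2 share 31.2% and 29.9% of their windows of 50 bases, mostly with each other, so their counts are uncertain. The other falls, named after their values were seen, were Cd300ld (-0.26, adjusted p = 0.000122) and Clec4n (-0.15, adjusted p = 0.0359, lost in 6 of 13). The adaptor Hcst itself (DAP10) had 14.1 and 14.5 CPM against 15.6 and 16.3 CPM (log2 fold change 0.16, adjusted p = 0.213).

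**Figure D5:**
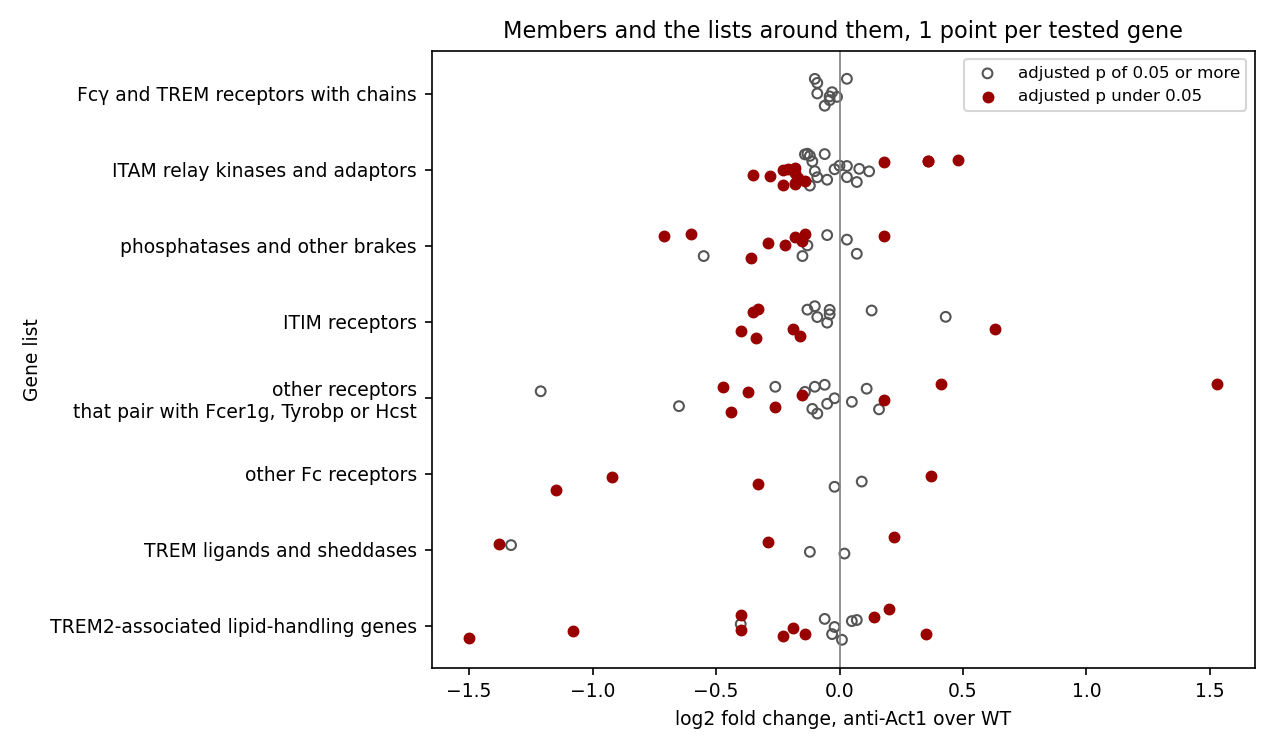
log2 fold change, libraries labelled anti-Act1 over libraries labelled WT, of each tested gene in the 9-gene group and in 7 lists around it. Filled points passed an adjusted p under 0.05 (edgeR); the 9 members, at the top, are all open and lie between -0.10 and 0.03, while Clec4e reaches 1.53 and Axl -1.50.

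Outside the Fcγ family, 6 other genes listed as Fc receptors were tested, of which 1 was higher and 3 lower (median log2 fold change -0.18). The list also holds Fc receptor-like relatives, Fcrls, Fcrl1 and Fcrlb among them. Fcrls, a scavenger-type relative, fell from 22.9 and 23.0 CPM to 9.63 and 11.0 CPM (log2 fold change -1.15 ± 0.09 (SE), adjusted p = 9.06e-15, edgeR). Fcrl1 fell by 0.92 on the log2 scale (adjusted p = 0.000421) and Fcgrt, the neonatal Fc receptor that recycles IgG, by 0.33 (adjusted p = 5.87e-06). Fcrlb rose by 0.37 ± 0.10 (adjusted p = 0.00470, lost in 2 of 13 alternatives). The mast cell IgE receptor chain Fcer1a, which also uses Fcer1g, was at 0 in all 4 libraries, where a floor of 3 counts comes to 0.0395 to 0.0549 CPM.

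Ligands and sheddases of TREM receptors gave 1 higher and 2 lower among 6 tested (median log2 fold change -0.20). Apoe, a ligand of TREM-2, had 28689 and 27001 CPM in the WT-labelled pair and 22432 and 23168 CPM in the pair labelled anti-Act1. On the log2 scale the change was -0.29 ± 0.05 (SE; adjusted p = 5.83e-06, edgeR), a call lost in 3 of 13 alternatives. The other fall, named after its values were seen, was Clu, another such ligand, which stood under 1 CPM (-1.38 ± 0.49, adjusted p = 0.0353) and lost its call in 6 of the 11 alternatives that tested it, each single library left out among them. Adam17, a protease that sheds TREM-2 from the surface, rose by 0.22 ± 0.05 (adjusted p = 0.000650), and Adam10, another sheddase, had a log2 fold change of -0.12 (adjusted p = 0.111; -0.162 and called without WT replicate 1). Thus the transcript of a ligand fell and that of a sheddase rose, while Trem2 had a log2 fold change of -0.01.

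Of 17 tested genes that accompany TREM-2 in other macrophages, 3 were higher and 7 lower (median log2 fold change -0.06). They are called lipid-handling genes below for short, though many of them have other roles. Axl, a receptor for apoptotic cells, fell from 88.6 and 89.0 CPM to 30.3 and 32.5 CPM (log2 fold change -1.50 ± 0.06 (SE), adjusted p = 8.39e-25, edgeR). Lpl, lipoprotein lipase, fell from 532 and 592 CPM to 268 and 265 CPM (log2 fold change -1.08 ± 0.05, adjusted p = 1.87e-21), and Clec7a (Dectin-1) by 0.40 on the log2 scale (adjusted p = 1.37e-08). The lysosomal protease Ctsl rose by 0.35 ± 0.05 (adjusted p = 2.37e-07, lost in 1 of 13 alternatives), Cd9 by 0.20 ± 0.05 (adjusted p = 0.00294, lost in 2) and Lgals3 by 0.14 ± 0.05 (adjusted p = 0.0285, lost in 8). Gpnmb, among the most abundant of the list with 14185 to 15582 CPM, had a log2 fold change of 0.05 (adjusted p = 0.558). The counts of these lists rest on both libraries labelled anti-Act1. Without either of them, fewer genes of most lists passed, and so did fewer of all genes tested. The drop is thus not particular to these lists. Rac1, Sla, Dok2, Cd300lf, Cd72, Pilra and Adam17 overlap a protein-coding gene on the other strand (GENCODE M21), whose reads could be among their counts.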

How the data were processed

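The authors extracted total RNA, aligned read pairs with TopHat and deposited raw counts per gene and FPKM values, which divide the counts by gene length and library total. Submitters' processing notes also name Bowtie 0.12.2, HTSeq 0.6.1 and the builds mm8 and mm10, with no role; the annotation is not given in the sources used here. The study's methods name mice of a wider age range and its text another coculture time than the labels used here. FPKM were joined to counts by gene name.

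Counts were tested with edgeR 4.0.16 (R 4.3.3; TMM, filterByExpr, condition only, two-sided quasi-likelihood F test, Benjamini-Hochberg over 12494 genes), with standard errors from the same fit. CPM are TMM-scaled. Alternatives were DESeq2 1.42.0, limma 3.58.1 on log2(FPKM + 1 or 0.1), other scalings and filters, a replicate block and each library left out. The scripts were first tested on simulated data. The study describes biological replicates; the labels name no animals, so p-values measure the spread between these libraries. Between replicates counts differed by more than sampling noise (chi-square per gene 10.8 and 7.45). Floors cover counting error only.

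Named were the members, Traf3ip2, and per list up to 3 rises and 3 falls of largest size among called genes with a mean of at least 1 CPM; list members of defining role may be named with their values. Members and lists were chosen with earlier results of these data known. Shared windows and overlaps come from GENCODE M21. Some list genes are not reported here.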

Additional observations from a re-analysis of the deposited data

How the results depend on the processing

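Of 117 values for the 9 members under 13 alternatives, 0 passed an adjusted p under 0.05 and 113 kept their direction. The 4 that turned were small: without WT replicate 1 the log2 fold changes were 0.020 for Fcer1g, 0.043 for Tyrobp and 0.085 for Trem2, and without anti-Act1 replicate 1 it was 0.008 for Trem2; the lowest, without WT replicate 2, were -0.091, -0.121 and -0.094. Of 544 values for the 42 other named genes, 482 stayed on their side of the threshold, 58 lost a call, 3 gained one and 1 turned (Gpnmb, -0.020 without anti-Act1 replicate 2, and at most 0.117 with 1 library left out). Called genes fell from 2586 to 1092 when limma ran on unfiltered log2(FPKM + 1). There 6 relay genes, 4 genes of the ITIM list, 4 of the pairing list and 4 of the lipid-handling list passed. With limma after a filter, at either pseudocount, 1 TREM ligand or sheddase passed. Leaving out 1 library gave 1671 to 2543 called genes, 8 to 16 relay genes, 5 to 7 brakes, 4 to 8 pairing receptors and 6 to 9 lipid-handling genes. Same-numbered libraries did not deviate together (correlation -0.0341), but 1 such value cannot settle whether they were paired. With the replicate block 2406 genes and 0 members were called. The cause of these shifts was not tested. With 2 libraries a group, the members' intervals include 0 and small changes either way, and Trem1 is limited by its low counts.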

Other observations

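Fcgr2b, Fcgr3, Fcgr4 and Fcer1g lie in 1 stretch of chromosome 1, and Trem1 and Trem2 in 1 stretch of chromosome 17. Fcgr1 lies apart on chromosome 3. The other genes of both stretches were read as well where they passed the filter on low counts. Between Fcgr2b and Fcer1g on chromosome 1, 6 of 38 other genes were tested and 1 was called. That gene, Pcp4l1, which encodes a small calmodulin-binding protein, had a mean of 5.04 CPM and a log2 fold change of -1.63 (adjusted p = 2.60e-12, edgeR). Sdhc, a subunit of succinate dehydrogenase in the same stretch, had 81.8 CPM and a log2 fold change of 0.06 (adjusted p = 0.499). From Trem1 to Trem2 on chromosome 17, 4 other genes were tested and 1 was called, B430306N03Rik, with 96.2 CPM and a log2 fold change of -0.18 (adjusted p = 0.0157). The TREM family members beside it had smaller or less certain differences. Treml2 had 24.1 CPM and a log2 fold change of 0.05 (adjusted p = 0.732), and Trem3 and Treml4 stood under 1 CPM.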
